A study of Mus musculus with 8 samples.

Results

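The Zscan4 and Usp17l genes are repeated gene families known for a burst of expression at the 2-cell stage of the mouse embryo, and their transcripts were examined in mouse full-grown oocytes. The members are the gene symbols Zscan4a to Zscan4f and Usp17la to Usp17le that have a row in the deposited count table, 10 of its 35976 symbols. They comprise 5 Zscan4 genes (Zscan4a, b, c, d and f) and 5 Usp17l genes (Usp17la, b, c, d and e), and Zscan4e is not analysed here. Full-grown oocytes were taken from ovaries in 4 groups of 2 libraries each, each library made from about 20 pooled oocytes without their zona pellucida. The groups were the double knockout of both H2A.Z genes, H2A.Z.1 (H2afz) and H2A.Z.2 (H2afv), labelled H2A.Z DKO; H2A.Z control, with the genotype given as wild type; Mll2 knockout (KO); and Mll2 wild type (WT). The sources used here do not give the Cre driver, strain or age of the animals, or whether replicate pools came from separate animals, so p-values measure the spread between these pools. Each mutant was compared with its own controls. The families were chosen by the levels of their copies in the libraries labelled DKO, far higher than in H2A.Z controls. That comparison is therefore a description here without a test, and only Mll2 KO against Mll2 WT was tested for the members.

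Zscan4 proteins carry a SCAN domain and zinc fingers, and in mouse embryonic stem cells Zscan4 is switched on in rare, transient 2-cell-like cells, where it is known for telomere lengthening and genome stability. Usp17l genes, also called Dub genes, encode deubiquitinases, enzymes that remove ubiquitin from proteins, and were first described as cytokine-inducible genes of blood cells. Both families lie in tandem clusters on mouse chromosome 7. In the embryo, transcription from the zygotic genome opens with such 2-cell genes, among them targets of the homeobox factor DUX, whereas a full-grown oocyte is largely silent in transcription and holds stored maternal messages. The histone variant H2A.Z replaces H2A at many promoters, and MLL2 (gene Kmt2b) is a methyltransferase of lysine 4 of histone H3.

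Promoter sequences show how alike the copies are and how many CpG dinucleotides lie at their starts. The sequences below run 5′ to 3′ on the gene's strand over 300 bases that reach from before the annotated start to just after it, from RefSeq on mm10 (GRCm38.p6), where 8 of the 10 members had one. Capitals mark the TATA box letters TATAAA on the gene's strand and the letters TGATTNAA on either strand. Zscan4c, d and f are shown as the copies past the count filter with their family's largest log2 fold changes under the DKO label. Usp17lb and Usp17lc are shown likewise, among the Usp17l copies past the filter that had counts in H2A.Z controls. Usp17la had 0 counts in these controls and is shown as the copy in which TATAAA was not found. Their positions are chr7:11005495-11005794 (plus strand) for Zscan4c, chr7:11166099-11166398 (minus) for Zscan4d and chr7:11397665-11397964 (plus) for Zscan4f. Those of Usp17lb, Usp17lc and Usp17la are chr7:104842534-104842833 (minus), chr7:103416446-103416745 (plus) and chr7:104856766-104857065 (plus).
Zscan4c: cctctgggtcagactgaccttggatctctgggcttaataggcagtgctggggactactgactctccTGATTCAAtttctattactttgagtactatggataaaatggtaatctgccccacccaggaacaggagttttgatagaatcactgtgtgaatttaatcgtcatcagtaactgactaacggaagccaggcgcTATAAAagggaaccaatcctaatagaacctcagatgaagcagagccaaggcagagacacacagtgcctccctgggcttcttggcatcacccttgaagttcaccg
Zscan4d: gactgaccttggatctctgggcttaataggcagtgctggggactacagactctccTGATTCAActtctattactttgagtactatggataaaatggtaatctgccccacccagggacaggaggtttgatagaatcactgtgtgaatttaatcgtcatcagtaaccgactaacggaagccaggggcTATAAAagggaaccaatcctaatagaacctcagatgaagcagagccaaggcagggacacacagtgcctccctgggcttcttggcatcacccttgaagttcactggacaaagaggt
Zscan4f: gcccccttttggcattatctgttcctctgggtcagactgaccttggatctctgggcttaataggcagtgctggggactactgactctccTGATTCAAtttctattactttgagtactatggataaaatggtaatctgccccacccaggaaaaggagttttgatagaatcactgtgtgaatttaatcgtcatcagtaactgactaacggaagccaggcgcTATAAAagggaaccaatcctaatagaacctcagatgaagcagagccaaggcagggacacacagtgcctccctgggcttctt
Usp17lb: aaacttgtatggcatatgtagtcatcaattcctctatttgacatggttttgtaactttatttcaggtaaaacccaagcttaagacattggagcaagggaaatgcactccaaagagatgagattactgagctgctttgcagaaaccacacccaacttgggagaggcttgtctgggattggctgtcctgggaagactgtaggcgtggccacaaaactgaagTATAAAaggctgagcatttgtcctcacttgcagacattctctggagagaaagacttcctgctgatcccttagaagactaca
Usp17lc: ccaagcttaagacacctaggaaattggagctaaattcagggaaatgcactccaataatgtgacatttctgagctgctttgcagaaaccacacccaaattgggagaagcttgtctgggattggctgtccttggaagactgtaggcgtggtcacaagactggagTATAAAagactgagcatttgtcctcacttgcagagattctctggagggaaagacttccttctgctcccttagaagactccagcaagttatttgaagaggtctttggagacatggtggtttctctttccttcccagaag
Usp17la: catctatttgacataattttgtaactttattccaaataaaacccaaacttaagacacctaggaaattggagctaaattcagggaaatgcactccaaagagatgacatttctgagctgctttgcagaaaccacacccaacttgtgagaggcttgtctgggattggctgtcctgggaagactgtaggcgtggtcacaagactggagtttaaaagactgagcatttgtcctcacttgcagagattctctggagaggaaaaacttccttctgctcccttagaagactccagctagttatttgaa

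All 4 Zscan4 promoters in the RefSeq table (b, c, d and f) held TATAAA, as did Usp17lb, Usp17lc and Usp17ld. On the gene's strand these letters were in 8.32% of the 32851 promoters of the table, and on either strand in 13.6%. In Zscan4b, Zscan4f and Usp17lb the match lay from 31 to 26 bases before the annotated start. It lay from 54 to 49 bases before it in Zscan4c, from 65 to 60 in Zscan4d, from 88 to 83 in Usp17lc and from 110 to 105 in Usp17ld. The letters TGATTNAA were in Zscan4c, Zscan4d and Zscan4f on the gene's strand and in Zscan4b on the other strand, against 2.87% of all promoters on either strand. The distance between the TATAAA and TGATTNAA matches was the same in Zscan4c, Zscan4d and Zscan4f. None of the 8 promoters held the paired homeobox palindrome, which is TGATTNAA followed by the letters TCA (0.0335% of all promoters), or the homeobox core TAATCC (7.06%), both strands searched. The TGATTNAA letters are the first part of that palindrome, and a match is a description of letters and not a bound site. The member promoters held 0 to 4 CpG dinucleotides in 300 bases, where the median promoter held 7. Zscan4c had 4, Zscan4d and Zscan4f had 3, Zscan4b, Usp17la, Usp17lb and Usp17lc had 1, and Usp17ld had 0. Of all promoters, 38.0% held 4 or fewer, 31.4% held 3 or fewer, 14.1% held 1 or fewer and 5.43% held 0. Within the Zscan4 family, promoters were identical at 95.3% to 99.3% of aligned bases in 6 pairs, and within the Usp17l family at 87.3% to 96.8% in 6 pairs.

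The copies share much of their transcript too, which limits how far a count can be tied to 1 copy. The longest GENCODE M21 transcripts of the 5 Zscan4 genes were identical at 94.8% to 97.8% of aligned bases, and those of the 5 Usp17l genes at 85.6% to 97.8%. Of the stretches of 50 bases in the Zscan4d transcript 50.4% occurred in no other gene's transcript, whereas the share was 36.4% for Zscan4a, 14.5% for Zscan4c, 9.65% for Zscan4b and 4.66% for Zscan4f. In the Usp17l family it was 80.4% for Usp17la, 78.2% for Usp17lb, 69.2% for Usp17le, 55.3% for Usp17lc and 48.9% for Usp17ld. Zscan4 stretches were shared with Zscan4e and the Zscan4 pseudogenes as well, which are no members. The sources used here do not give the read length or the handling of shared reads, so family sums are given beside each copy and values of Zscan4b and Zscan4f are the least certain.

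Libraries held 20309233 to 30087863 counts. The 2 pools of a group differed by more than counting error in every group (chi-square over its degrees of freedom, across genes, of 6.24 under the DKO label, 4.67 in H2A.Z control, 36.8 in Mll2 KO and 12.2 in Mll2 WT), most of all in Mll2 KO. The gene targeted in the Mll2 line, Kmt2b, fell to 8.73 and 9.28 CPM (counts put on one library-size scale) in Mll2 KO, against 41.9 and 42.4 CPM in Mll2 WT. In the H2A.Z line, H2afz measured 322 and 317 CPM in the libraries labelled DKO and 23.9 and 29.97 CPM in H2A.Z controls. H2afv measured 285 and 294 CPM under the DKO label and 107.9 and 107.2 CPM in controls, so both targeted genes were higher and not lower under the label. Counts cover whole genes and the deleted exons are not in the labels. Every direction in the H2A.Z line below is that of the label. Whether the labels of this line are exchanged was not tested. If they were, every log2 difference in the H2A.Z line would change sign, and both families would be lower in the double knockout than in its controls. Oocyte markers were present throughout, with summed levels of 14 genes, such as Gdf9 and Zp3, of 25590 to 27790 CPM under the DKO label, 27200 to 27870 in H2A.Z controls, 19380 to 21730 in Mll2 KO and 22550 to 26540 in Mll2 WT. The 15 granulosa and cumulus markers summed to 125.8 to 127.7 CPM under the DKO label against 94.7 to 97.4 in controls, and to 102.9 to 103.1 CPM in Mll2 KO against 92.2 to 94.6 in WT. Of these 15, 10 were tested, and 3 were higher and 2 lower in each comparison (50%, against 30.9% and 30.6% of all genes called), with medians of -0.00 under the label and 1.47 in Mll2 KO on the log2 scale. Cyp19a1 and Nr5a2 make up most of the sums. Those higher were Fshr (log2 4.36), Nr5a2 and Has2 under the label, and Fshr (log2 3.23), Gja1 (log2 2.60, edgeR adjusted p = 0.0286) and Nr5a2 in Mll2 KO. Those lower were Fst and Gja1 under the label, and Cyp19a1 and Kitl in Mll2 KO. The defining marker Amh had no counts in 6 of 8 libraries and at most 0.0517 CPM, and Foxl2 had at most 0.237 CPM. The 10 theca and stroma markers summed to 4.65 to 6.74 CPM under the label against 3.95 to 5.27 in controls, and to 2.90 to 5.34 CPM in Mll2 KO against 2.68 to 3.53 in WT. Of these 10, 3 were tested, and 0 were called under the label. In Mll2 KO Dcn rose (log2 1.03) and Star fell (log2 -1.84, edgeR adjusted p = 0.0372 and 0.00549), or 66.7% called against 30.6% of all genes. The 10 blood and endothelial markers summed to 29.1 to 32.2 CPM under the label against 22.2 to 23.6 in controls. They summed to 36.3 to 44.5 CPM in Mll2 KO against 35.6 to 36.6 in WT, with the 4 globin genes and Cdh5 at 0 in every library. Pecam1 made up most of these sums, with 29.4 and 27.4 CPM under the label, 18.4 and 20.1 in controls, 33.6 and 40.8 in Mll2 KO and 33.1 and 32.3 in WT. Of the 10, 3 were tested, with 33.3% called under the label and 66.7% in Mll2 KO, against 30.9% and 30.6% of all genes. Under the label Pecam1 rose (log2 0.56, edgeR adjusted p = 0.00787). Cd68 (log2 -0.77) and Kdr (log2 -0.73) were not past the threshold there (edgeR adjusted p = 0.0828 and 0.379). In Mll2 KO Cd68 fell (log2 -1.01) and Kdr rose (log2 1.42, edgeR adjusted p = 0.0245 and 0.0329). Pecam1 was not past the threshold in Mll2 KO (log2 0.19, edgeR adjusted p = 0.327). The part of other cells in the results below was not tested.

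In the libraries labelled DKO, the Zscan4 family as a whole stood about 15-fold above its controls. Its summed level was 182 and 155 CPM under the DKO label, against 12.9 and 9.72 CPM in H2A.Z controls, a ratio of means of 14.9. Both DKO-labelled libraries lay far above both controls, and the gap between groups was many times the gap between replicates. Zscan4d, the most abundant copy, had 138.5 and 120.6 CPM under the label and 9.10 and 6.70 CPM in controls (log2 difference 4.05 ± 0.34, SE). Zscan4c, the copy from which the embryonic stem cell work on Zscan4 took its best known reporter, had 32.3 and 24.2 CPM under the label and 1.499 and 1.32 CPM in controls (log2 4.33 ± 0.31). The groups did not overlap for either copy. Zscan4f had 90 and 71 counts under the label and 2 and 1 counts in controls, near the detection limit (ratio of summed counts 54.7, counting interval 18.4 to 267.9). Zscan4a, annotated by RefSeq as a transcribed pseudogene, had 7.32 and 6.36 CPM under the label and 2.17 and 1.63 CPM in controls. Its log2 difference of 1.85 ± 0.32 was the smallest in the family among the copies that passed the count filter. Zscan4b stayed near the detection limit, with 4 and 6 counts under the label and 0 and 1 in controls (ratio 10.2, counting interval 1.45 to 442.2), and did not pass the filter.

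**Figure D1:**
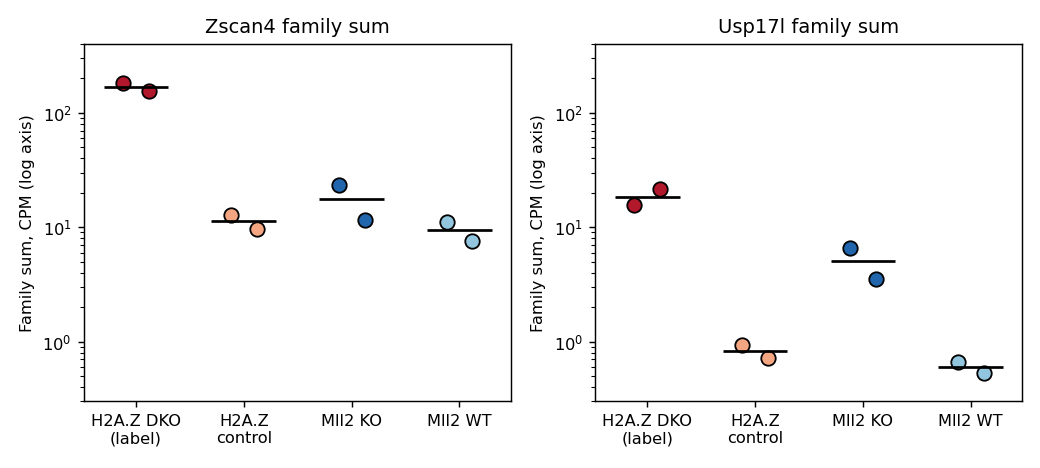
Summed counts of the Zscan4 genes (left) and of the Usp17l genes (right) in CPM on a log axis, by group. Points are the 2 libraries of a group and bars their mean; the DKO-labelled libraries are the highest in both families, and Mll2 KO stands clear of Mll2 WT for Usp17l.

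The Usp17l family also stood far above its controls under the DKO label, at a lower absolute level. Its sum was 15.6 and 21.5 CPM under the DKO label, against 0.931 and 0.717 CPM in H2A.Z controls, a ratio of means of 22.5. Usp17lb (Dub1a) held most of it, with 12.9 and 15.3 CPM under the label and 0.621 and 0.638 CPM in controls (log2 4.47 ± 0.38). The 2 control pools were nearly alike for this copy and far below both DKO-labelled pools. Usp17lc (Dub2) had 29 and 33 counts under the label and 1 and 1 in controls (ratio 31.6, counting interval 8.38 to 266.6). Usp17le (Dub3) had 29 and 91 counts under the label and 5 and 1 in controls (ratio 20.4, counting interval 9.09 to 56.6), so its DKO-labelled pools differed from each other more than those of the other copies. Usp17la (Dub1) had 2 and 6 counts under the label and none in controls. With a floor of 3 counts put in for the control group the ratio was 2.72, which is not a lower bound. The counting interval of the ratio reached down to 1.74. Usp17ld (Dub2a) had 0 counts in all 8 libraries, which allows up to 3 counts in each. Of the 10 members, 9 had both DKO-labelled libraries above both controls, and over all 16847 genes tested this share was 43.4%, with 26.9% showing the opposite order. Nothing is read from that count, because this contrast chose the families and a copy low in all other groups passes the count filter only where it is high.

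**Figure D2:**
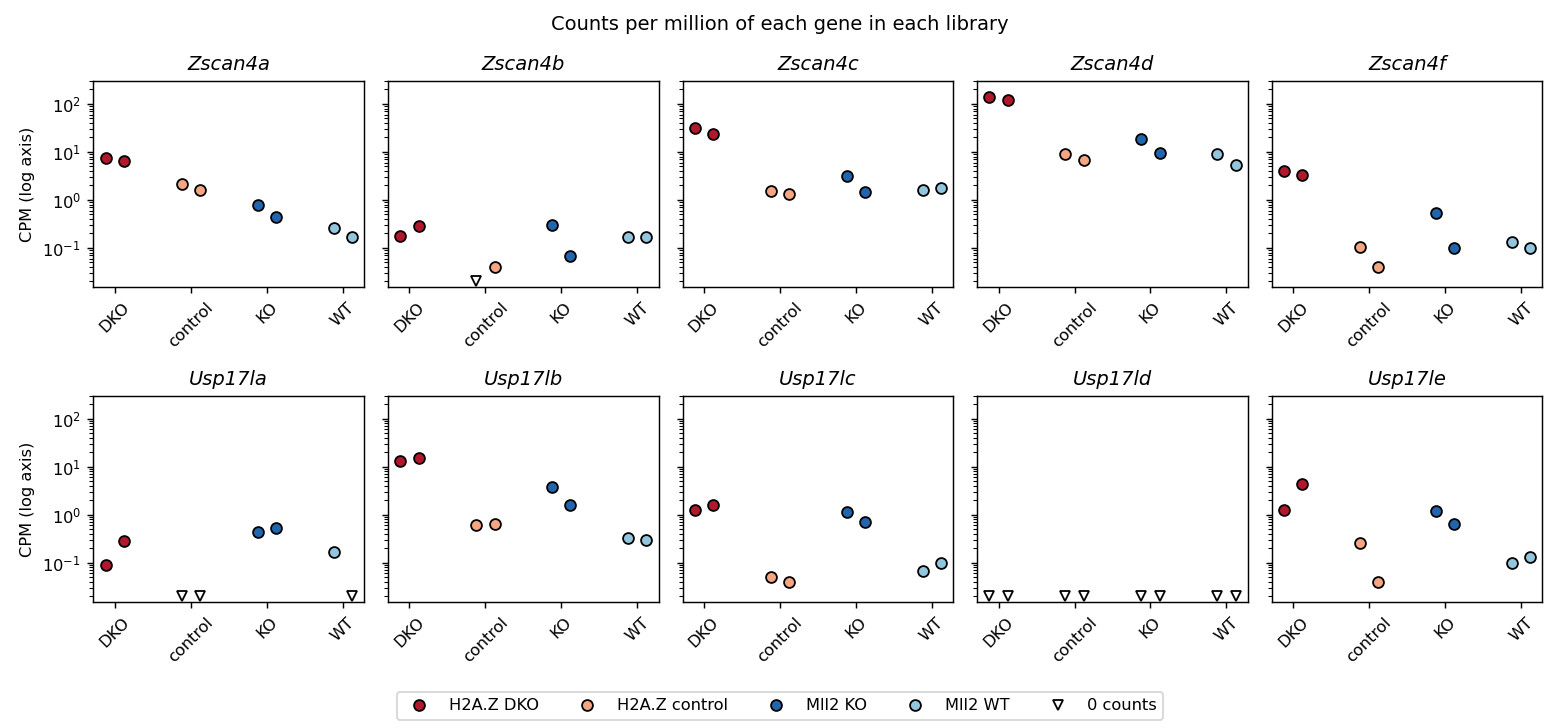
Level of each of the 10 genes in each library, in CPM on a log axis, with groups from left to right H2A.Z DKO (label), H2A.Z control, Mll2 KO and Mll2 WT; open triangles are libraries with 0 counts, drawn at the foot of the axis. Zscan4d reaches the highest level, and Usp17ld was not detected in any library.

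In Mll2 KO the Zscan4 family was only modestly higher than in Mll2 WT, and much of the difference came from 1 of the 2 KO libraries. The family sum was 23.4 and 11.6 CPM in Mll2 KO, against 11.1 and 7.65 CPM in Mll2 WT, a ratio of means of 1.87. The lower KO library stood just above the higher WT library, and the KO pools differed 2.01-fold from each other. Zscan4d had 18.7 and 9.58 CPM in KO and 8.93 and 5.44 CPM in WT. It rose by 0.97 ± 0.32 on the log2 scale (edgeR quasi-likelihood test, adjusted p = 0.0467). That call ended with the Mll2 line fitted alone (adjusted p = 0.0569), with DESeq2 (adjusted p = 0.0637), and without DKO 2, Mll2 WT 2 or Mll2 KO 1 (edgeR adjusted p = 0.0503, 0.205 and 0.253). Zscan4a rose at a very low level, with 23 and 13 counts in KO and 8 and 5 in WT (log2 1.48 ± 0.49, edgeR adjusted p = 0.0306). This call ended with the line fitted alone and without Mll2 WT 1, Mll2 WT 2 or Mll2 KO 1 (edgeR adjusted p = 0.115, 0.0637, 0.205 and 0.184). Zscan4c had 3.14 and 1.45 CPM in KO and 1.62 and 1.78 CPM in WT, so the groups overlapped. Its log2 difference of 0.43 ± 0.32 was not past the threshold (edgeR adjusted p = 0.324), and it was -0.22 without Mll2 KO 1 and 0.84 without Mll2 KO 2 (edgeR adjusted p = 0.606 and 0.0231). Zscan4f had 16 and 3 counts in KO and 4 and 3 in WT (log2 1.43 ± 0.76, edgeR adjusted p = 0.165), with -0.18 and 2.14 without KO 1 or KO 2 (edgeR adjusted p = 0.906 and 0.0237). Zscan4b had 9 and 2 counts in KO and 5 and 5 in WT and was not tested.

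The Usp17l family was higher in Mll2 KO by a larger factor, and its groups were well apart. The family sum was 6.61 and 3.50 CPM in Mll2 KO, against 0.661 and 0.528 CPM in Mll2 WT, a ratio of means of 8.50. The lower KO library stood several times above the higher WT library, although the KO pools again differed 1.89-fold, in the same direction as for Zscan4. Usp17lb had 114 and 48 counts in KO and 10 and 9 in WT, and rose by 3.10 ± 0.43 on the log2 scale (edgeR adjusted p = 6.42e-05). Usp17lc had 34 and 21 counts in KO and 2 and 3 in WT and rose by 3.41 ± 0.65 (edgeR adjusted p = 0.00107). These 2 calls held in all alternatives, with adjusted p up to 0.00189 and 0.0153 when a library was left out. Usp17le had 35 and 19 counts in KO and 3 and 4 in WT and rose by 2.92 ± 0.77 (edgeR adjusted p = 0.00954), a call lost without Mll2 WT 1 or WT 2 (edgeR adjusted p = 0.0705 and 0.0591). Usp17la had 13 and 16 counts in KO and 5 and 0 in WT. Both KO libraries lay above both WT libraries, but the difference of 2.50 ± 0.96 was not past the threshold (edgeR adjusted p = 0.0628), and it passed it without Mll2 WT 1 (log2 6.64, edgeR adjusted p = 0.0393), where the remaining WT library has no counts and the fitted size depends on the prior count.

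Over both families, 5 of the 8 members tested rose in Mll2 KO, 0 fell and 3 were not past the threshold, and 14.4% of all genes tested rose. Both KO libraries lay above both WT libraries for 6 of the 8, against 32.2% of all genes tested, and for none of the 8 below both, against 32% of all genes tested. Nothing is read from these shares, because Usp17la passed the count filter only through Mll2 KO. Usp17lc, Usp17le and Zscan4f had 1 to 5 counts in every control library and passed only through the mutant libraries. With the Mll2 line fitted alone, Zscan4f did not pass the filter and was not tested. By family, 3 of 4 tested Usp17l genes and 2 of 4 tested Zscan4 genes rose. The fitted log2 differences ran from 2.50 to 3.41 for the Usp17l genes and from 0.43 to 1.48 for the Zscan4 genes. The SE bars of Usp17la (2.50 ± 0.96) and Zscan4a (1.48 ± 0.49) overlapped. Usp17la was 1.52 without Mll2 WT 2, and Zscan4f was 2.14 without Mll2 KO 2. Copies are not replicates of a family, and a difference between the families was not tested. The corresponding ranges under the DKO label were 4.30 to 4.84 for Usp17lb, c and e and 1.85 to 5.66 for the Zscan4 genes. The 2 lines share no libraries, but the difference between the mutant effects was not tested because the H2A.Z contrast chose the families. The count of 5 became 3 with the Mll2 line fitted alone and was 2 without Mll2 WT 2 and 3 without Mll2 KO 1.

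**Figure D3:**
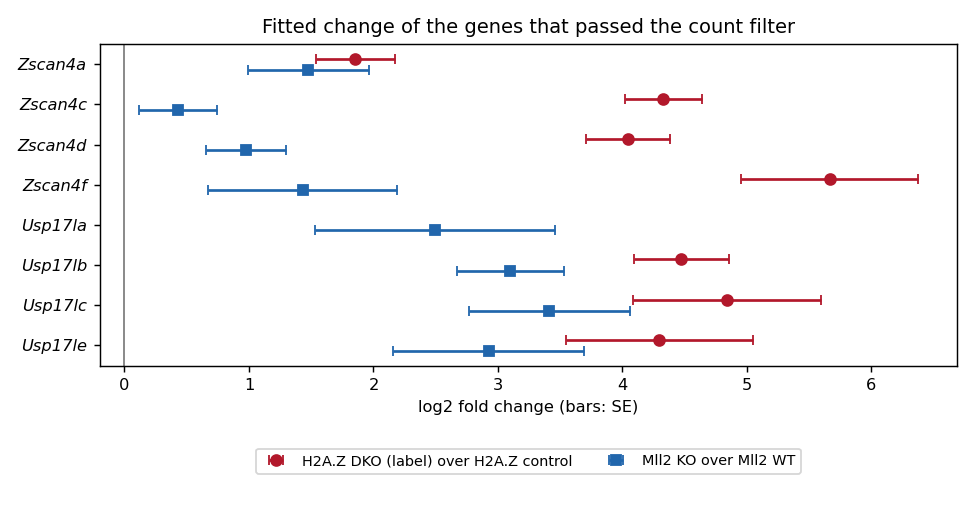
Fitted log2 fold change with its SE for the copies that passed the count filter, circles for H2A.Z DKO (label) over H2A.Z control and squares for Mll2 KO over Mll2 WT. The circle of Usp17la is left out because its controls had 0 counts; in Mll2 KO the Usp17l copies lie between 2.50 and 3.41 and the Zscan4 copies between 0.43 and 1.48.

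Levels were compared between copies per kilobase of the longest transcript. Zscan4d came first under the DKO label with 57.0 ± 5.57 CPM per kb (SD, n = 2), followed by Zscan4c with 12.4 ± 2.51, Usp17lb with 9.05 ± 1.08, Zscan4a with 3.001 ± 0.298 and Zscan4f with 2.01 ± 0.24 CPM per kb. The levels of Zscan4c and Usp17lb lay closer than the sum of their spreads, while those of Zscan4d and Zscan4c were far apart. Usp17le with 1.49 ± 1.14, Usp17lc with 0.593 ± 0.0824, Zscan4b with 0.130 ± 0.0427 and Usp17la with 0.0703 ± 0.0522 CPM per kb followed. In Mll2 KO Zscan4d was again first with 6.21 ± 2.82 CPM per kb, and Usp17lb came next with 1.75 ± 1.01, followed by Zscan4c with 1.01 ± 0.53, which lay within its spread. In the controls Zscan4d had 3.48 ± 0.75 CPM per kb in the H2A.Z line and 3.16 ± 1.08 in Mll2 WT, a difference smaller than the spread of either group. Zscan4c had 0.618 ± 0.0572 CPM per kb in H2A.Z controls and 0.747 ± 0.05 in Mll2 WT, a difference larger than the spread of either group, and it was not tested. Zscan4a was the copy whose control level differed most between lines, with 0.835 ± 0.167 CPM per kb in H2A.Z controls and 0.0942 ± 0.0309 in Mll2 WT. This pair was not tested, and the lines may differ in background as well as in the gene targeted.

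The make-up of each family changed less than its level. Zscan4d supplied 76.0% and 77.9% of Zscan4 counts under the DKO label and 70.7% and 68.9% in H2A.Z controls. Exact 95% binomial intervals, which cover counting error only, were 74.7 to 77.3% and 76.5 to 79.3% under the label and 64.6 to 76.3% and 62.6 to 74.6% in controls. In Mll2 KO its share was 79.7% and 82.4%, against 80.4% and 71.1% in Mll2 WT. Zscan4a supplied 4.02% and 4.11% under the DKO label (intervals 3.44 to 4.66% and 3.45 to 4.85%), against 16.9% and 16.8% in H2A.Z controls (12.4 to 22.1% and 12.3 to 22.1%), so H2A.Z controls stood apart from the other 3 groups. In Mll2 KO and WT the Zscan4a share ran from 2.16% to 3.76%. Usp17lb supplied 82.9% and 71.2% of Usp17l counts under the DKO label and 66.7% and 88.9% in H2A.Z controls, where only 18 family counts were present in each library. In Mll2 KO it supplied 58.2% and 46.2% (intervals 50.9 to 65.2% and 36.3 to 56.2%), against 50% and 56.2% in Mll2 WT. Usp17la made up 6.63% and 15.4% in Mll2 KO, against 25% and 0% in Mll2 WT, so the groups overlapped, and 0.57% and 1.33% under the DKO label, against 0% in both H2A.Z controls.

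**Figure D4:**
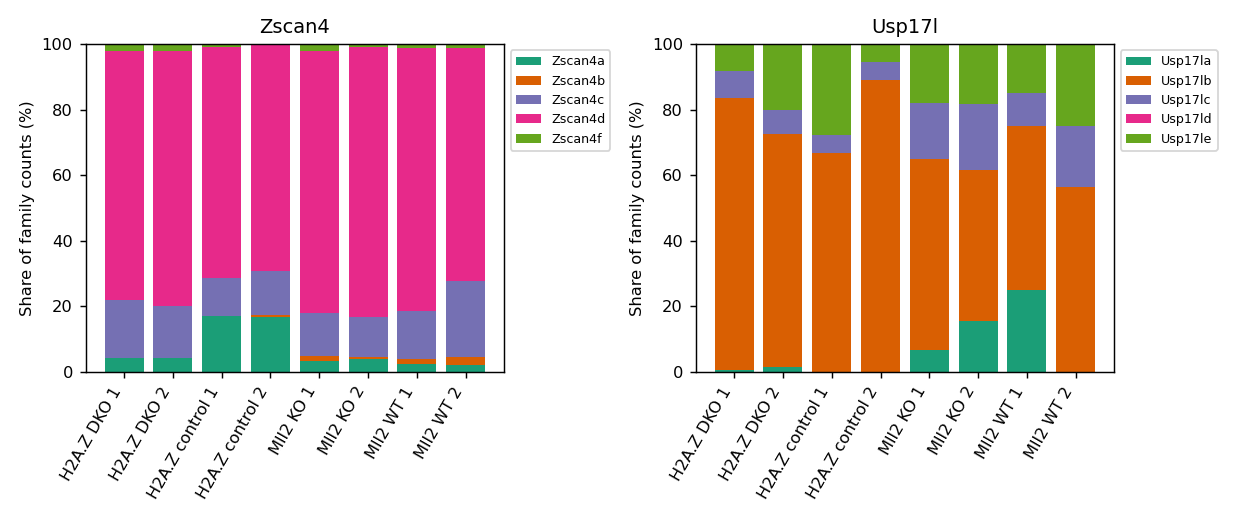
Share of each copy in the counts of its family, in percent, for each library, Zscan4 on the left and Usp17l on the right. Zscan4d and Usp17lb take the largest share in every library, and the Zscan4a share is near 17% in H2A.Z controls and near 4% or below elsewhere.

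The genes most like the families across the 8 libraries were found by correlating log2 CPM over 8020 genes at 10 CPM or more in at least one group, as a description of libraries that share the same group steps. For the Zscan4 sum the highest Pearson r were 0.99 for Wdr20rt, a retrogene of a WD-repeat gene, 0.99 for the keratin gene Krt76, 0.99 for Spg21, 0.98 for Dpy30, a subunit shared by H3K4 methyltransferase complexes, and 0.98 for the H3.3 gene H3f3b. Wdr20rt, the closest, had 18.4 and 14.1 CPM under the DKO label and 2.53 and 2.19 CPM in H2A.Z controls, then 3.81 and 2.69 CPM in Mll2 KO and 2.38 and 2.28 CPM in WT. For the Usp17l sum they were 0.99 for the chemokine gene Ccl2, 0.98 for the follicle-stimulating hormone receptor gene Fshr, and 0.97 for Rps25, Qrich2 and Ankrd49. Fshr is one of the 15 granulosa markers above, and the part of granulosa RNA in it was not tested. Ccl2 had 97.3 and 111.1 CPM under the label and 7.34 and 9.48 CPM in controls, and 46.5 and 22.9 CPM in Mll2 KO against 5.19 and 5.87 CPM in WT. The sums of the 2 families correlated at r = 0.91 with each other.

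Other genes of the 2-cell stage included some that moved with the families and others that did not. Of 38 listed, 33 were in the table, 5 of these had no counts anywhere and 16 passed the count filter. Of these 16, 8 rose and 2 fell under the DKO label, with a median log2 difference of 1.15, against 19.4% and 11.5% of all genes and a median of 0.12. A gene that is low elsewhere passes the filter only where it is high, so the count over those that passed is not read as support. The PRAME-family gene Pramef25 had 10.7 and 13.2 CPM under the label and 0.569 and 0.478 CPM in controls (log2 4.51 ± 0.33, edgeR adjusted p = 2.38e-07). BC080695, Gm20767, B020004J07Rik, Gm5039 and Gm13119 rose by 4.45, 4.33, 3.56, 2.49 and 4.74 on the log2 scale, with edgeR adjusted p up to 5.7e-05. Gm13119 had 2 and 2 counts in controls and passed the count filter only through the libraries labelled DKO, so its p is not read as support. The 2 that fell were the arginase gene Arg2 (307 and 341 CPM under the label, 499 and 463 CPM in controls) and Tmem92 (edgeR adjusted p = 0.0229 and 0.0369). The 2-cell genes Tcstv1 and Tcstv3 were detected in all groups and did not pass the test under the label, with log2 differences of 0.14 and -0.19 (edgeR adjusted p = 0.396 and 0.829). Duxf3, which encodes DUX, had 3 and 0 counts under the label and 1 and 0 in controls, and Zfp352 had 1 and 3 counts under the label and 2 and 3 in controls, both too few to test.

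In Mll2 KO, 4 of the same 16 genes rose and 3 fell, with a median log2 difference of 0.05, against 14.4% and 16.2% of all genes. BC080695 rose, with 39 and 37 counts in KO and 2 and 2 in WT (log2 4.18 ± 0.50, edgeR adjusted p = 1.67e-05). B020004J07Rik rose by 2.35 ± 0.42 (edgeR adjusted p = 0.00063) and Gm5039 by 1.33 ± 0.31 (edgeR adjusted p = 0.00575, and 0.0619 without Mll2 WT 2). Pramef25 had 11 and 19 counts in KO and 6 and 6 in WT (log2 1.33, edgeR adjusted p = 0.0439), and Gm13119 had 4 and 5 counts in KO and 5 and 7 in WT. Arg2 fell by 0.88, the nuclear body gene Sp110 by 0.51 and AA792892 by 0.44 on the log2 scale (edgeR adjusted p = 0.00199, 0.00291 and 0.0274, the last over 0.05 in 5 of 14 alternatives). Duxf3 had 3 and 3 counts in KO and none in WT, at or near the detection limit. The 7 calls became 4 without Mll2 WT 2.

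**Figure D5:**
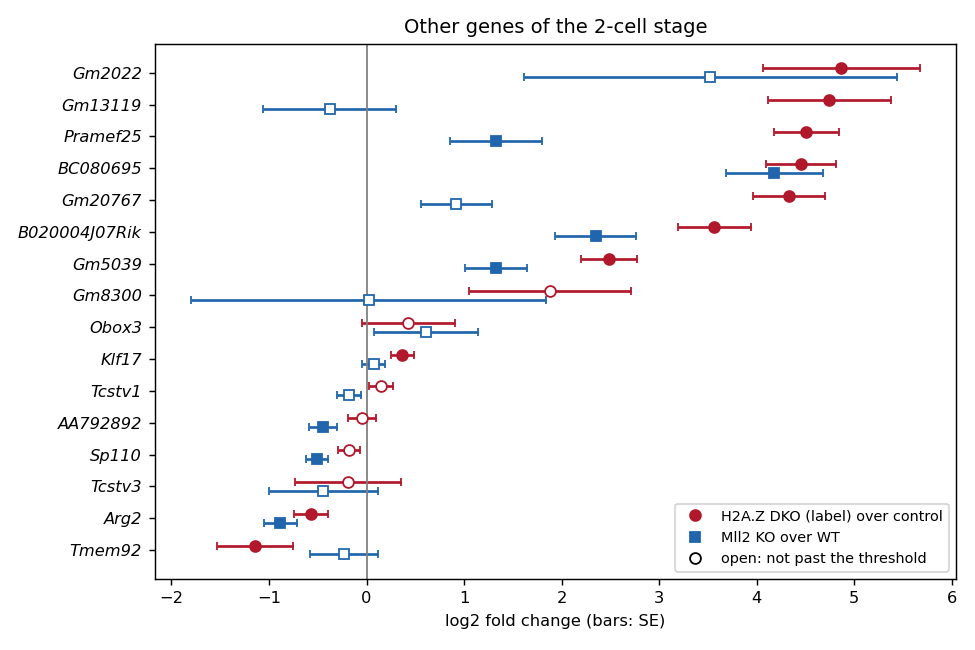
Log2 fold change with its SE for the other 2-cell-stage genes that passed the count filter, circles for H2A.Z DKO (label) over control and squares for Mll2 KO over WT; filled symbols passed the threshold of adjusted p under 0.05. BC080695 lies above 4 in both comparisons, and the differences between the comparisons were not tested.

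Among genes described as activators of the 2-cell programme, 10 of 11 were in the table and 9 were tested. Of these, 3 rose and 1 fell under the DKO label (4 of 9, or 44.4%, against 30.9% of all genes called), and the count was 0 or 1 without either H2A.Z control, either DKO library or Mll2 WT 2, and 1 with library size alone as the scaling. Those called were Dppa2, the nuclear receptor gene Nr5a2 and Obox5, with log2 differences of 0.39 each, and Dppa4, with -0.68 (edgeR adjusted p from 0.0109 to 0.0242), and each had an adjusted p over 0.05 in 4 to 7 of 14 alternatives. Nr5a2 is also one of the granulosa and cumulus markers above, and the part of granulosa RNA in it was not tested. Dppa4, whose product pairs with DPPA2 upstream of Dux in mouse embryonic stem cells, fell in Mll2 KO to 1.35 and 1.82 CPM against 13.5 and 22.0 CPM in WT (log2 -3.48 ± 0.26, edgeR adjusted p = 9.04e-08). In Mll2 KO the Yy1 transcription factor gene rose by 1.41 and Nr5a2 by 0.75, while Obox5 fell by 0.36 (edgeR adjusted p = 0.00127, 0.00023 and 0.0378, the last over 0.05 in 10 of 14 alternatives). This gave 2 higher and 2 lower of 9, or 44.4% against 30.6% of all genes called, and 7 called without Mll2 KO 1.

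Of 28 genes described as repressors of the 2-cell programme, all were tested. Of the 28, 12 rose and 3 fell under the DKO label (53.6% called, against 30.9% of all genes), with a median log2 difference of 0.36. Trim28, the corepressor of KRAB zinc finger proteins, had 88.2 and 84.2 CPM under the label and 40.6 and 47.6 CPM in controls (log2 0.96 ± 0.14, edgeR adjusted p = 0.000139). The histone chaperone gene Daxx, the DNA methylation cofactor gene Uhrf1 and Morc3 rose by 0.83, 0.59 and 0.54 (edgeR adjusted p = 0.0015, 0.00191 and 0.0027, the last 0.0565 without DKO 1). Chaf1b, a subunit of the chromatin assembly factor CAF-1, fell by 0.84 (edgeR adjusted p = 0.000441). Zfp42 (Rex1) was nearly absent, with 0 and 1 counts under the label and 15 and 25 in controls (edgeR adjusted p = 0.00131). In Mll2 KO 8 rose and 6 fell (50% called, against 30.6% of all genes). Trim28 had 189.0 and 265 CPM in KO and 112.1 and 116.9 CPM in WT (log2 0.99 ± 0.14, edgeR adjusted p = 6.98e-05), and Daxx and L3mbtl2 rose by 0.99 and 0.96 (edgeR adjusted p = 0.000208 and 0.00166). Hdac2 fell by 0.67 and Atrx by 0.65 (edgeR adjusted p = 0.000126 and 0.000911), and Zfp42 again had 1 and 0 counts in KO, against 24 and 22 in WT (edgeR adjusted p = 0.000831). The 15 calls under the DKO label became 8, 6 and 6 without H2A.Z control 1, control 2 and DKO 1, and the 14 in Mll2 KO became 9 and 7 without Mll2 WT 1 and WT 2, and 9 with the line fitted alone.

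Position in the genome was examined through genes starting within 500 kb of a member on mm10. The Zscan4 members span chr7:10794241-11402318 and the Usp17l members lie at chr7:103250086-103419174 (Usp17ld and Usp17lc) and chr7:104767961-104862667 (Usp17le, Usp17lb and Usp17la). Of 16 neighbours of the Zscan4 cluster in the table, 7 had no counts and 5 were tested. Under the DKO label the predicted gene Gm6909 rose (log2 1.79, edgeR adjusted p = 0.00338) and the zinc finger gene Zik1 fell (log2 -2.27, edgeR adjusted p = 0.00216). The abundant oocyte gene Nlrp4b, between Zik1 and Zscan4a, had 633 and 613 CPM under the label and 664 and 594 CPM in controls (log2 -0.01 ± 0.12). In Mll2 KO none of the 5 rose, and Zik1 and Gm7789 fell (log2 -1.80 and -0.72, edgeR adjusted p = 0.0127 and 0.00688, the first over 0.05 without Mll2 WT 1 or Mll2 KO 1). Of 112 neighbours of the Usp17l genes, most of them odorant receptor genes, 70 had no counts and 10 were tested, and 3 rose and 0 fell in each comparison, where 19.4% of all genes rose under the DKO label and 14.4% in Mll2 KO. Those under the DKO label were the Trim genes Trim12a (4.13 and 3.66 CPM against 0.259 and 0.120 CPM, log2 4.38 ± 0.69, edgeR adjusted p = 0.000265), Trim30a and Trim30d. Trim12a had 5 and 3 counts in H2A.Z controls and passed the count filter only through the libraries labelled DKO. Its p and the number of neighbours that rose under the label are therefore not read as support. In Mll2 KO they were Trim30d (15.9 and 13.3 CPM against 5.85 and 5.41 CPM in WT, log2 1.37 ± 0.19, edgeR adjusted p = 5.74e-05), Trim12c and Olfr585. The Trim30d call under the label had an adjusted p over 0.05 in 6 of 14 alternatives and that of Trim30a in 1 (0.0817 without H2A.Z control 2, edgeR), and in Mll2 KO that of Olfr585 did in 10 and that of Trim12c in 3. Trim12a and Trim12c are close paralogs, so their counts are uncertain where reads were shared.

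Genes outside the 2 families with Zscan or Usp symbols were called in both directions. Of 12 other Zscan genes, which encode SCAN-domain zinc finger proteins of other loci, 9 were tested. Under the DKO label 3 rose and 0 fell, with a median log2 difference of -0.24 (33.3%, against 30.9% of all genes called), and in Mll2 KO 4 rose and 2 fell, with a median of 0.47 (66.7%, against 30.6%). The 3 calls were 6 with library size alone and 7 with the line fitted alone, were 1 without H2A.Z control 1, and were 5, 7 and 7 without Mll2 WT 2, Mll2 KO 1 and Mll2 KO 2. The 6 in Mll2 KO were 3 without Mll2 WT 2. Other Usp genes were taken by symbol and include Usp6nl, so the list is not one of deubiquitinase genes alone. Of 51 other Usp genes, 49 were tested, and 9 rose and 4 fell under the DKO label (26.5%, against 30.9% of all genes called), while 5 rose and 10 fell in Mll2 KO (30.6%, as over all genes). These counts were 7, 8 and 5 without H2A.Z control 1, control 2 and DKO 1, 22 with the line fitted alone or without Mll2 KO 1 or 2, and in Mll2 KO 6 and 23 without WT 2 and KO 1. Of 19 telomere maintenance genes, 18 were tested. Under the DKO label 7 rose and 3 fell (median 0.22; 55.6%, against 30.9% of all genes called), and in Mll2 KO 4 rose and 4 fell (median -0.10; 44.4%, against 30.6%). The 10 calls under the label were 6, 5, 5 and 6 without H2A.Z control 1, control 2, DKO 1 and DKO 2, and the 8 in Mll2 KO were 5 and 4 without WT 1 and WT 2.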

How the data were processed

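Polyadenylated RNA from pools of about 20 oocytes was converted to cDNA with the SMART-Seq v4 kit and made into libraries with Nextera XT, per the labels' protocols. The deposited values are whole-number raw counts per gene symbol, not normalised. The submitters' processing notes name the build mm10 and the tools RSEM 1.3.1, STAR 2.7.3 and Trim Galore 0.6.4; what each did, the annotation and any rounding are not stated there.

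Counts were analysed with edgeR 4.0.16 in R 4.3.3. All 8 libraries entered one fit of 4 group means (4 residual degrees of freedom), after filterByExpr (16847 genes), TMM scaling and robust quasi-likelihood estimation. Adjusted p-values are Benjamini-Hochberg over all tested genes, called under 0.05. CPM divide by the TMM-scaled library size. The SE came from the F statistic. For members with few counts, ratios under the DKO label carry exact binomial counting intervals at 95% on the summed counts of a group. These intervals cover counting error only and leave out the spread between pools. The fit was checked on simulated counts. The members, gene lists and tests were chosen with earlier results of these data known. Named genes were all members, the targeted genes, up to 6 called genes of the 2-cell, activator and repressor lists by smallest p, up to 4 neighbours, and 5 genes per family with the highest correlation, without predicted symbols. Tcstv1, Tcstv3, Duxf3, Zfp352, Tmem92, Nlrp4b and single granulosa, theca, stroma, blood and endothelial markers were named after their values were seen. Alternatives were other scaling, no filter, each line alone, DESeq2 1.42.0, a replicate block and leaving out each library. Sequences were aligned with Biopython 1.88.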

Additional observations from a re-analysis of the deposited data

Results flagged for a closer look

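Among the members, the targeted genes, the genes named from the 2-cell, activator and repressor lists and the genes most like the families, 4 had such values that both mutant libraries lay on one side of both controls in one line and on the opposite side in the other line. Over all genes tested, 43.4% had both mutant libraries above both controls and 26.9% below under the DKO label. In Mll2 KO these shares were 32.2% and 32%, and nothing is read from the number 4. The difference between the lines was not tested. The log2 change under the DKO label minus that in Mll2 KO was 2.72 for Kmt2b, the gene targeted in the Mll2 line. It was 0.64 for Dppa2, 0.75 for Obox5 and 0.82 for Hdac2. Hdac2 under the label (log2 0.15) and Dppa2 in Mll2 KO (log2 -0.25) were not past the threshold (edgeR adjusted p = 0.282 and 0.0797). These signs rest on the DKO label, which the H2afz and H2afv levels go against. With exchanged labels in the H2A.Z line these 4 would move the same way in both lines, and the members without overlap in both lines (Usp17la, Usp17lb, Usp17lc, Usp17le, Zscan4a and Zscan4d) would move in opposite directions.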

How the results depend on the processing

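The family sums kept their direction in every setting tried. When a library was left out, the log2 ratio ran from 3.71 to 4.12 for Zscan4 and from 4.24 to 4.71 for Usp17l under the DKO label, and from 0.32 to 1.28 and from 2.57 to 3.43 in Mll2 KO. The number of members called in Mll2 KO was 2 to 7 when a library was left out and 3 with the line fitted alone. Without Mll2 KO 1, Zscan4c turned to -0.22 and Zscan4f to -0.18 (0.84 and 2.14 without Mll2 KO 2); the cause was not tested. With library size alone, activators called under the DKO label numbered 1 and other Zscan genes 6. With the line fitted alone, other Zscan genes numbered 7 and other Usp genes 22 under the DKO label, and repressors 9 in Mll2 KO. Zscan4f did not pass the count filter in the Mll2 line alone.

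Leaving out a library gave 7 to 12 calls among 2-cell genes, 0 to 4 among activators, 6 to 17 among repressors, 5 to 12 among telomere genes, 1 to 7 among other Zscan genes and 5 to 22 among other Usp genes under the DKO label. In Mll2 KO the ranges were 4 to 10, 3 to 7, 7 to 18, 4 to 12, 3 to 7 and 6 to 23. Over all genes, 5198 were called under the DKO label and 5158 in Mll2 KO, with 2642 to 6568 and 2681 to 6819 when a library was left out. The median log2 change of all genes under the DKO label was 0.12, or 0.0018 with library size alone, and 62.9% or 45.5% of calls were higher. In Mll2 KO it was 0.02, or 0.14 with library size alone, and 47.1% or 62.9% of calls were higher.

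With a replicate block in place of independent replicates, 5 members were called in Mll2 KO, as without it, and 4988 and 4968 genes over all. The block ended the calls of Obox5 in both comparisons and of Olfr585 in Mll2 KO among the genes named. Differences between same-numbered replicates correlated by only 0.04 in the H2A.Z line and -0.02 in the Mll2 line, so the numbers were not taken to pair the samples. Members with under 10 counts in a group are limited by depth, and with 2 pools a group the spread of each copy is poorly known.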
